A study of Mus musculus with 8 samples.

Results

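Brain region patterning transcription factors are the homeobox, paired-box, zinc-finger, basic helix-loop-helix and nuclear receptor genes whose expression marks where along the neural tube a progenitor arose. A set of 41 such genes was taken by symbol, from probes whose accession mapped to the gene in RefSeq, out of 37074 genes and transcripts on the array. They had 53 probes, and 33 of the 41 were bright enough for testing among 26856 genes and transcripts tested. The choice was made by gene name, without a filter on measured values, but with earlier results of these data known.

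The cells were neural stem cells (NSC), the self-renewing progenitors of the embryonic brain, isolated from E13.5 embryos of the mouse strain OF-1. The 4 experiments used different donors, and in each experiment cultures were kept in parallel at 5% oxygen (hypoxia) or at atmospheric 21% oxygen (normoxia). All cultures grew in serum-free medium for at least 10 days, which took 2 to 3 passages, and no genetic change was made. RNA from the 8 cultures was measured on 1-colour Agilent mouse expression arrays to ask how sustained low oxygen alters NSC gene expression. The brain region dissected and the pooling of embryos are not given in the sources used here.

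In the embryo, signalling centres at the edges and borders of the neural tube set up domains of such factors, many of which repress the factor of the neighbouring domain. Emx, Pax6 and Lhx2 mark the dorsal telencephalon, which forms the cortex, while Gsx, Dlx and Nkx2-1 mark the ventral telencephalon, which forms the basal ganglia and many interneurons. Otx and Six3 mark anterior territories, En and Pax2 the midbrain-hindbrain border, and Hox genes the hindbrain and spinal cord.

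The 75th percentile of the processed signal ran from 1909 to 7352 intensity units over the 8 arrays, and 64.4% to 73.9% of non-control spots were well above background, the scanner software's call for a spot brighter than its surroundings. All 8 arrays lay on 1 slide. Of 10 NSC markers, among them Nes, Sox2 and Fabp7, all 10 were well above background on all 8 arrays. So were 6 of 6 oligodendrocyte lineage, 6 of 6 astrocyte and 11 of 13 neuronal markers, so this call does not tell NSC from those cells. Levels below are log2 of the processed signal minus the array's 75th percentile, so 0 is the level of that percentile, and the number of arrays limits their precision. Signals of different genes come from different probes and are not ranked against each other. Each culture is a mixture, so fewer cells of a type and less RNA per cell cannot be told apart.

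The cultures held transcripts of fore- and midbrain patterning factors and of factors with broad axial domains, whereas most Hox genes were not well above background on any array. Weak Hox signal did not extend to all posterior factors. Of 16 midbrain and hindbrain genes outside the set, 10 were well above background on all 8 arrays, among them Dbx2 at 35700 to 255000 intensity units. Of the 41 genes, 30 were well above background on all 8 arrays in at least 1 probe, 5 on some arrays and 6 on none. Over all RefSeq genes on the array, 72.2% were well above background on all 8 arrays, so the share among the patterning genes was near that background.

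**Figure D1:**
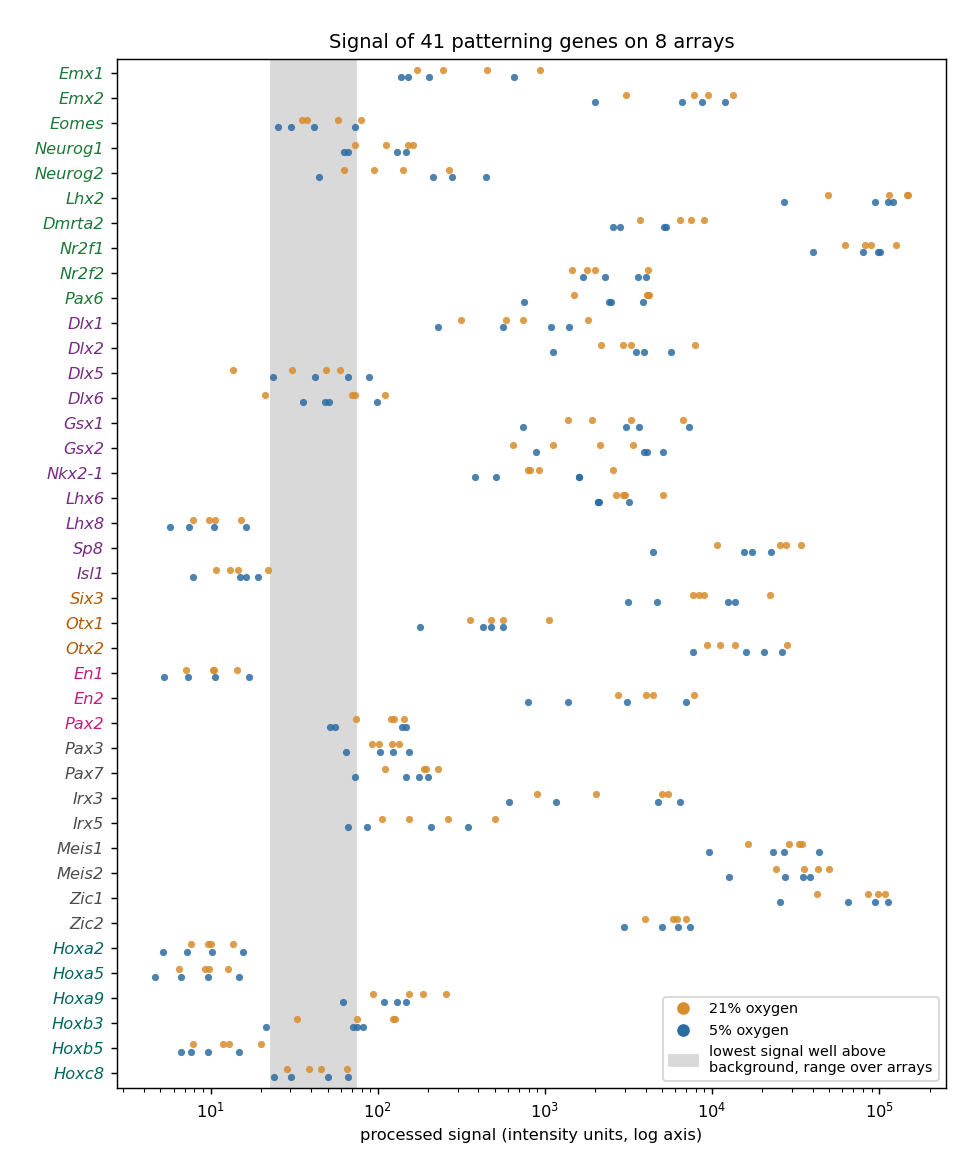
Processed signal (intensity units, log axis) of the 41 patterning genes on the 8 arrays, with each gene's brightest probe in mean and 1 point per array. Label colours mark the role groups, and the grey band, from 23.1 to 73.8 intensity units, is the range over arrays of the lowest signal called well above background. Lhx8, Isl1, En1, Hoxa2, Hoxa5 and Hoxb5 lie to the left of the band on every array at both oxygen levels.

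Among 10 dorsal telencephalic genes, 9 were well above background on all 8 arrays. Lhx2, the LIM-homeobox selector of cortical identity, gave 26900 to 149000 intensity units over the arrays. Nr2f1, a nuclear receptor graded across the cortex, gave 40300 to 126000 in its brighter probe and 14500 to 43200 in its second. Emx2, a homeobox factor of the dorsal and caudal cortex, gave 2000 to 13300. Its paralog Emx1, the DM-domain factor Dmrta2, the paired-box factor Pax6 and the nuclear receptor Nr2f2 were also measured on all arrays. Both proneural genes were weak but above background on all arrays, with Neurog1 at 63.2 to 162 and Neurog2 at 44.6 to 445 intensity units. Eomes, the T-box factor of cortical intermediate progenitors, reached the criterion on 6 arrays, and its second probe on none.

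Of 11 ventral telencephalic genes, 7 were well above background on all 8 arrays: Dlx1, Dlx2, Gsx1, Gsx2, Nkx2-1, Lhx6 and Sp8. Dlx genes and Gsx genes act in progenitors of the ganglionic eminences, Nkx2-1 specifies the medial eminence and Lhx6 follows it in interneurons born there. Sp8, a zinc-finger factor, gave 4440 to 34100 intensity units in its brighter probe and 253 to 855 in its second. Lhx8 and Isl1, which mark postmitotic cholinergic and striatal neurons, were below the criterion on every array. Lhx6 rested on 1 of its 3 probes, as the other 2 were not well above background on any array.

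Dlx5 and Dlx6, neighbours in the genome that act after Dlx1 and Dlx2 in maturing interneurons, lay at the edge of detection. Dlx6 was well above background on 6 arrays, with log2 levels of -5.41, -8.44, -6.18 and -6.05 in experiments 1 to 4 at 21% oxygen and -5.75, -6.55, -7.13 and -5.79 at 5% oxygen. Dlx5 was well above background on 3 arrays and was not tested, with -6.61, -7.21, -8.60 and -6.95 at 21% oxygen and -5.50, -7.67, -6.67 and -5.95 at 5% oxygen. In both genes the oxygen groups overlapped. Eomes, the other telencephalic gene at this edge, had -6.40, -7.60, -6.52 and -6.53 at 21% oxygen and -6.24, -6.85, -7.81 and -6.21 at 5% oxygen, which also overlapped.

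All 3 anterior genes were well above background on all 8 arrays: Six3, which represses posterior identity in the anterior neural plate, at 3130 to 22300 intensity units, Otx2, required for fore- and midbrain, at 7610 to 28200, and its paralog Otx1. At the midbrain-hindbrain border the 2 Engrailed paralogs differed in detection. En2 gave 798 to 7850 intensity units and was above background on all arrays, whereas En1 was above background on none. Pax2, an early marker of that border, was weak at 51.7 to 147 intensity units, and its second probe was above background on 1 array.

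The 8 genes of the dorsal neural tube or of broad axial domains were all well above background on all 8 arrays. Zic1, a zinc-finger factor of the dorsal neural tube, gave 25500 to 112000 intensity units in its brighter probe and 983 to 4190 in its second. The homeobox Hox cofactors Meis1 and Meis2 gave 9540 to 43500 and 12700 to 49600. Zic2, Irx3 and Irx5 were also measured on all arrays. The paired-box genes Pax3 and Pax7, which mark dorsal progenitors, were weak at 64.9 to 154 and 73.1 to 228 intensity units.

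Of the 6 Hox genes in the set, Hoxa9 alone was well above background on all 8 arrays, at 62.3 to 255 intensity units. Hoxa2, Hoxa5 and Hoxb5 were above background on no array. Hoxb3 was above background on 5 arrays, with log2 levels of -6.50, -5.85, -6.14 and -5.89 at 21% oxygen and -6.48, -6.08, -6.50 and -6.06 at 5% oxygen, so the groups overlapped. Hoxc8 was above background on 1 array and was not tested, with -6.70, -7.55, -6.34 and -7.32 at 21% oxygen and -6.32, -7.31, -6.68 and -6.75 at 5% oxygen, again overlapping. Over all 39 Hox genes on the array, 4 were above background on all 8 arrays, 11 on some and 24 on none, and the highest signal of any of their 43 probes was 255 intensity units.

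Among the 11 patterning genes with more than 1 probe, 5 had every probe well above background on all 8 arrays. In Eomes, Lhx6, Pax3 and Hoxb3, at least 1 probe was above background on no array. The 8 tested genes under 300 intensity units on every array were Eomes, Neurog1, Dlx6, Pax2, Pax3, Pax7, Hoxa9 and Hoxb3, a limit chosen after the values were seen. Their levels had a median pairwise correlation over the 8 arrays of 0.29, against -0.04 among the 25 brighter tested genes, as a description of probes that share arrays and their background.

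Oxygen moved few of these genes. Gsx2, the homeobox factor that specifies lateral ganglionic eminence progenitors, was higher at 5% than at 21% oxygen in all 4 experiments and rose 2.43-fold in the fit that paired cultures by experiment. No other patterning gene passed that test, and none passed the unpaired test.

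The log2 level of Gsx2 at 21% oxygen was -2.21, -1.12, -2.24 and -1.78 in experiments 1 to 4, and at 5% oxygen it was -1.11, -0.28, -0.42 and -0.42. The groups did not overlap, though the highest value at 21% (-1.12) and the lowest at 5% (-1.11) were almost equal. The group means were -1.84 ± 0.52 and -0.56 ± 0.38 (SD, n = 4), and the differences within experiments were 1.10, 0.84, 1.82 and 1.37. The log2 change of 1.28 passed limma's paired test (SE 0.18, Benjamini-Hochberg adjusted p = 0.00766) and not its unpaired test (SE 0.29, adjusted p = 0.147). Over the alternatives that kept the pairing, the adjusted p ran from 0.000375 to 0.0481, and without it from 0.0624 to 0.803. A second probe of the gene had log2 levels of -2.57, -1.54, -2.70 and -2.25 at 21% oxygen and -1.59, -0.69, -1.16 and -0.89 at 5% oxygen. It was higher at 5% oxygen in 4 of 4 experiments, by a log2 change of 1.18.

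Gsx1, the paralog that acts in the same progenitors, did not share this pattern. Its log2 level was -0.65, -0.12, -1.95 and -1.16 at 21% oxygen and -1.36, -0.64, -0.89 and 0.42 at 5% oxygen, with overlapping groups. It was lower at 5% oxygen in experiments 1 and 2, by -0.71 and -0.52, and higher in experiments 3 and 4, by 1.06 and 1.58. The mean change of 0.35 (SE 0.37) had an adjusted p of 0.67 in limma's paired test. The difference between the paralogs in their response was not tested.

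The promoters of this pair are printed because 1 paralog passed the oxygen test and the other did not. Hypoxia-inducible factors bind hypoxia response elements whose core is ACGTG or GCGTG, so the 250 bases before each RefSeq start (GRCm38.p6, plus strand) were searched for ACGTG and GCGTG on both strands, and matches are in capitals. Gsx2 lies at chr5:75075351-75075600 and Gsx1 at chr5:147188446-147188695.
Gsx2: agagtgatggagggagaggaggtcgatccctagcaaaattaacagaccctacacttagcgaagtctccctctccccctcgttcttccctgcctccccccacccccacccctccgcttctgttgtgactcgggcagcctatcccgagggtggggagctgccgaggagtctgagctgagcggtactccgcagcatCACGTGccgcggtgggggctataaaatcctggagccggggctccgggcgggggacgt
Gsx1: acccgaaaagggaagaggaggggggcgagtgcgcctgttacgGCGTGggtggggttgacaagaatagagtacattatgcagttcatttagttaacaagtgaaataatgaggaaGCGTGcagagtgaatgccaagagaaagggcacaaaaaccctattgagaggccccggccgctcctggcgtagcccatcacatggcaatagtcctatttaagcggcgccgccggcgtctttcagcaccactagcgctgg
Each window held 2 matches. Those of Gsx2 overlap, 1 on each strand, in the palindrome CACGTG, which is also an E-box, the site class of basic helix-loop-helix factors. Those of Gsx1 are separate GCGTG matches on the printed strand. Such a match is common: 38.6% of 32851 RefSeq promoters held 1 or more, as did 24 of 43 promoters (55.8%) of the 31 patterning genes with an entry. Promoters of the patterning genes were also richer in G and C, with a median of 57.2% against 52.4% over all. Neurog2 and Nr2f2 held no match in this window. The matches are a description of letters, and binding was not measured.

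**Figure D2:**
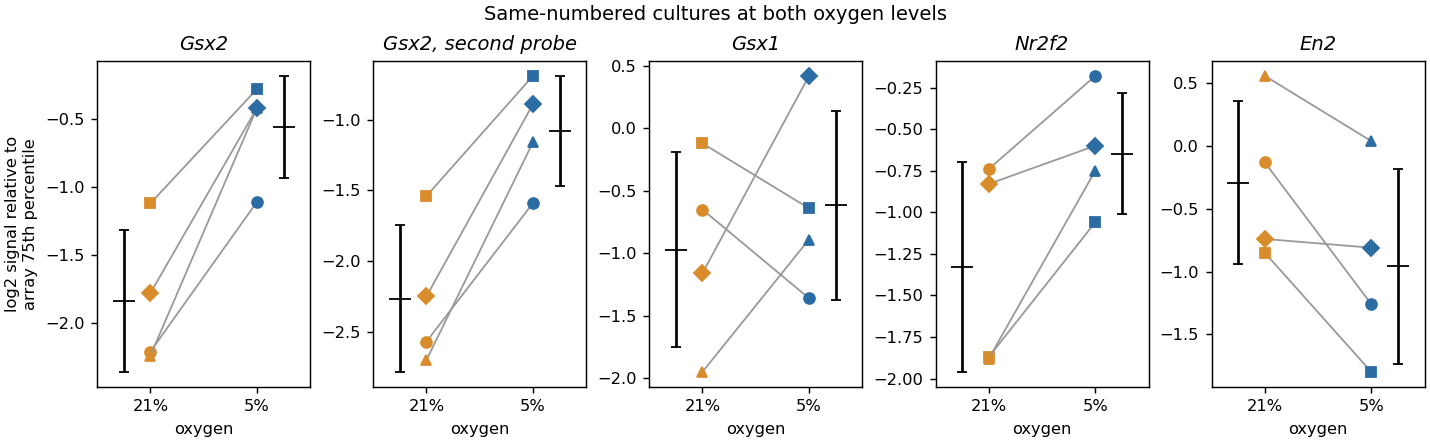
Log2 level (log2 processed signal minus the array's 75th percentile) at 21% and 5% oxygen for both Gsx2 probes, Gsx1, Nr2f2 and En2. Lines join the cultures of 1 experiment (circle, square, triangle and diamond for experiments 1 to 4) and black bars give the mean ± SD (n = 4). All 4 lines rise for both Gsx2 probes and for Nr2f2 and fall for En2, whereas those of Gsx1 cross.

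Across the 33 tested patterning genes, 17 were higher and 16 lower at 5% oxygen, and the median log2 change of 0.01 lay near the 0.03 over all genes. The median size of the change was 0.21 against 0.18 over all genes, and the changes ran from -0.67 (En2) to 1.28 (Gsx2). The paired test called 1 of 33, Gsx2, where it called 5.54% of all genes tested. The unpaired test called 0 of 33, where it called 0.0894% of all genes. Without adjustment, limma's p was under 0.05 for 2 of 33 in the unpaired fit (8.04% of all genes) and for 7 of 33 in the paired fit (19.4% of all genes): Neurog2, Nr2f2, Pax6, Gsx2, Sp8, Otx2 and En2. The oxygen groups did not overlap in 1 of 33, again Gsx2, against 4.81% of all genes. The 4 experiments shared a direction in 8 of 33, against 28.2% of all genes: Gsx2, Nr2f2, Neurog2 and Dlx1 higher, and En2, Emx1, Pax6 and Meis2 lower at 5% oxygen. The counts thus lay near or below those over all genes.

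**Figure D3:**
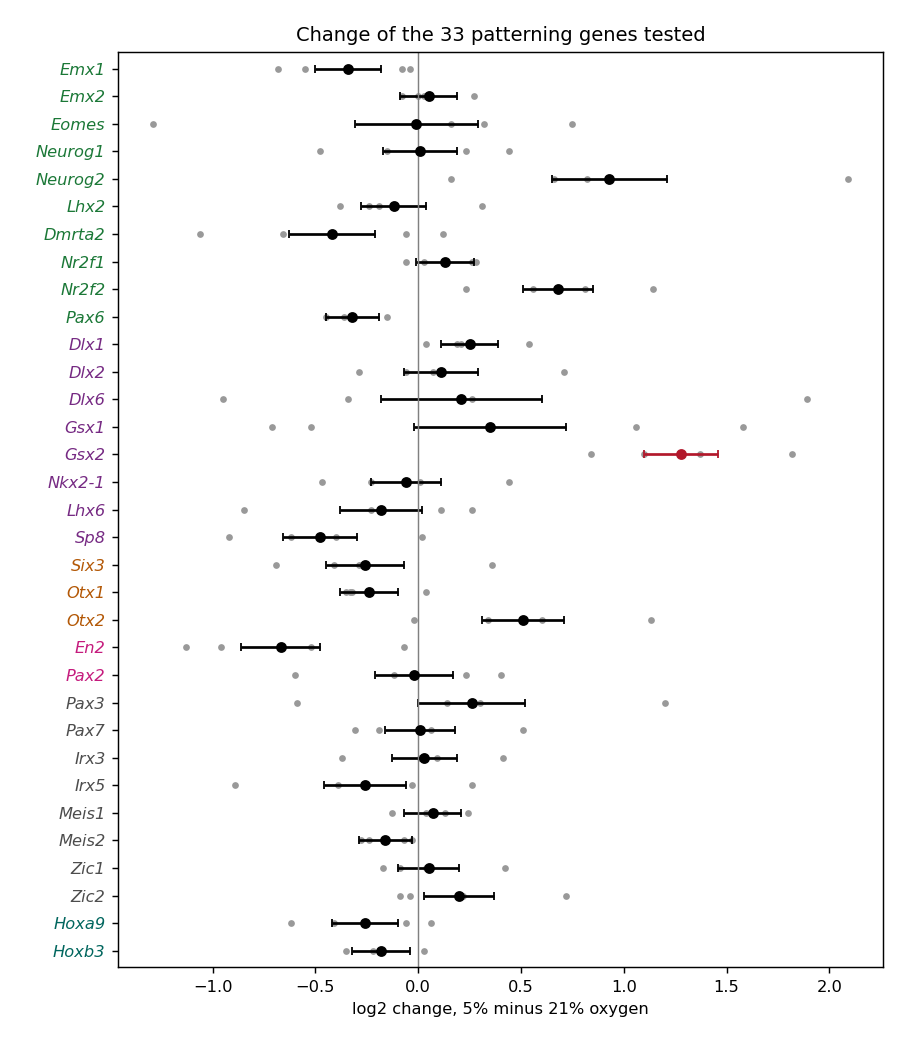
Change at 5% against 21% oxygen (log2) of the 33 tested patterning genes. Grey points are the 4 within-experiment differences and larger points the paired change ± SE, in red where the Benjamini-Hochberg adjusted p of limma's paired test was under 0.05. Gsx2 at 1.28 is the only red point.

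Among dorsal telencephalic genes, 3 of 10 had an unadjusted paired p under 0.05, against 19.4% of all genes. After adjustment 0 of 10 passed, against 5.54% of all genes. Nr2f2, a nuclear receptor of the caudal cortex and caudal ganglionic eminence, had log2 levels of -0.74, -1.87, -1.88 and -0.83 at 21% oxygen and -0.18, -1.06, -0.75 and -0.60 at 5% oxygen. The groups overlapped, while the differences within experiments were all positive at 0.56, 0.81, 1.14 and 0.23. Its log2 change of 0.68 (1.61-fold, SE 0.17) had an adjusted p of 0.0632 in limma's paired test and 0.652 in the unpaired test. Without experiment 4 the change was 0.83 with an adjusted p of 0.0408, and without experiments 1, 2 and 3 the adjusted p was 0.17, 0.164 and 0.199.

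Neurog2, the proneural factor of cortical progenitors, had log2 levels of -5.58, -4.77, -5.81 and -5.70 at 21% oxygen and -5.42, -4.10, -4.99 and -3.61 at 5% oxygen. The groups overlapped, and the culture at 5% oxygen in experiment 4 stood highest. Its differences within experiments were 0.16, 0.66, 0.82 and 2.09, a mean log2 change of 0.93 (1.91-fold, SE 0.28) with an adjusted p of 0.109 in the paired and 0.576 in the unpaired limma test. Without experiment 4 the change was 0.54 with an adjusted p of 0.187. Pax6, which maintains cortical progenitors, had a change of -0.32 (SE 0.13, adjusted p = 0.233 in limma's paired test) in its brighter probe, at 747 to 4210 intensity units. A second Pax6 probe, at 54.6 to 257, changed by -0.16 and was higher at 5% oxygen in 1 experiment, so it did not share a direction. The other dorsal genes had paired adjusted p of 0.306 or more, with changes of -0.42 for Dmrta2, -0.34 for Emx1, -0.12 for Lhx2, -0.01 for Eomes, 0.01 for Neurog1, 0.05 for Emx2 and 0.13 for Nr2f1.

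Among the 8 tested ventral genes, Gsx2 passed and the others did not. Sp8 came next in adjusted p, with a log2 change of -0.48 (SE 0.18, adjusted p = 0.18 in limma's paired test). The neighbouring genes Dlx1 and Dlx2 had changes of 0.25 and 0.11, and Dlx6 of 0.21. Nkx2-1 at -0.06 and Lhx6 at -0.18 had adjusted p of 0.895 and 0.689. Gsx1 is given above.

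Of the anterior genes, Otx2 had a log2 change of 0.51 (SE 0.20, adjusted p = 0.194), Otx1 of -0.24 and Six3 of -0.26, in limma's paired test. En2 had the lowest change of the set. Its log2 level was -0.13, -0.85, 0.56 and -0.74 at 21% oxygen and -1.26, -1.80, 0.04 and -0.81 at 5% oxygen. The groups overlapped, and the differences within experiments were -1.13, -0.96, -0.52 and -0.07. The mean change of -0.67 (SE 0.19) had an adjusted p of 0.0947 in the paired and 0.817 in the unpaired limma test. Without experiment 4 it was -0.87 with an adjusted p of 0.0368, and without experiments 1, 2 and 3 the adjusted p was 0.355, 0.243 and 0.217. Pax2 had a change of -0.02 (adjusted p = 0.964).

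The 8 dorsal neural tube and broad axial genes had log2 changes between -0.26 and 0.26. In limma 0 of 8 had an unadjusted paired p under 0.05, against 19.4% of all genes. Pax3 stood at 0.26, Zic2 at 0.20, Meis1 at 0.07, Zic1 at 0.05, Irx3 at 0.03, Pax7 at 0.01, Meis2 at -0.16 and Irx5 at -0.26. For the Hox genes Hoxa9 and Hoxb3 the changes were -0.26 and -0.18, with paired adjusted p of 0.436 and 0.524. A second Hoxa9 probe went the other way, with a change of 0.11. It was well above background on 7 arrays, at 46.5 to 116 intensity units.

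More of these genes passed a test between experiments than the test of oxygen, as was so over all genes (5210 against 1487 of 26856). In limma's F test between the 4 experiments, with oxygen in the fit, 8 of 33 patterning genes passed, against 19.4% of all genes tested, a share near that background. The median range between experiment means was 0.90 (log2) over the 33 genes and 0.68 over all genes. The 8 genes were Irx3, Emx1, Nkx2-1, Six3, Irx5, Dlx1, En2 and Lhx6, from every role group but the Hox genes. Donors, dissection and culture run all change with the experiment and cannot be told apart.

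Irx3, an Iroquois homeobox factor of the dorsal neural tube and broad axial group, had log2 levels of -1.74, -0.43, -0.08 and -1.87 at 21% oxygen and -1.65, -0.01, -0.08 and -2.23 at 5% oxygen in experiments 1 to 4. Experiments 2 and 3 were high and experiments 1 and 4 low at both oxygen levels, a 3.92-fold range between experiment means (adjusted p = 0.00475, limma F test). Its neighbour in the genome Irx5 had -4.81, -4.79, -3.41 and -5.59 at 21% oxygen and -4.84, -4.53, -4.30 and -5.98 at 5% oxygen. Experiment 3 was highest and experiment 4 lowest at both oxygen levels, a 3.82-fold range (adjusted p = 0.0201), which did not pass without experiment 4 (0.0777). Irx5 gave 66.6 to 498 intensity units, so its lowest values came near the lowest signal called well above background.

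Emx1 ran against Irx3 in its order of experiments. Its log2 levels were -3.61, -4.02, -4.95 and -2.97 at 21% oxygen and -3.65, -4.57, -5.63 and -3.05 at 5% oxygen. Experiments 4 and 1 were high and experiment 3 lowest, a 4.84-fold range (adjusted p = 0.00559, limma F test). Six3 had 1.58, 0.08, 0.65 and 1.60 at 21% oxygen and 1.29, -0.61, 1.01 and 1.19 at 5% oxygen, with experiment 2 lowest at both and a 3.26-fold range (adjusted p = 0.0169, and 0.154 without experiment 2).

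Nkx2-1 also stood lowest in experiment 2. Its log2 levels were -1.92, -3.17, -2.53 and -1.53 at 21% oxygen and -1.91, -3.64, -2.09 and -1.76 at 5% oxygen, a 3.38-fold range (adjusted p = 0.0154, limma F test, and 0.131 without experiment 2). Dlx1 had -3.24, -3.30, -3.18 and -2.02 at 21% oxygen and -3.05, -3.09, -2.64 and -1.97 at 5% oxygen. Experiment 4 was highest at both oxygen levels, a 2.29-fold range (adjusted p = 0.0214), and without it the adjusted p was 0.594.

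Lhx6 had log2 levels of 0.01, -1.45, -0.86 and -0.54 at 21% oxygen and 0.12, -1.19, -1.10 and -1.39 at 5% oxygen. Experiment 1 was highest at both, a 2.61-fold range (adjusted p = 0.038, limma F test), and the adjusted p was 0.696 without experiment 1, 0.0515 without experiment 2 and 0.0506 without experiment 3. En2, whose levels are given above, was highest in experiment 3 and lowest in experiment 2, a 3.09-fold range (adjusted p = 0.0267), with 0.058 without experiment 2 and 0.228 without experiment 3. Irx3 and Emx1 passed under every alternative run. Emx2, Eomes, Gsx2 and Nr2f2 also passed without experiment 3 (0.0433, 0.047, 0.0468 and 0.0433), Dlx2 without experiment 2 (0.0391), and Neurog2 and Nr2f2 without experiment 4 (0.035 and 0.0402).

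**Figure D4:**
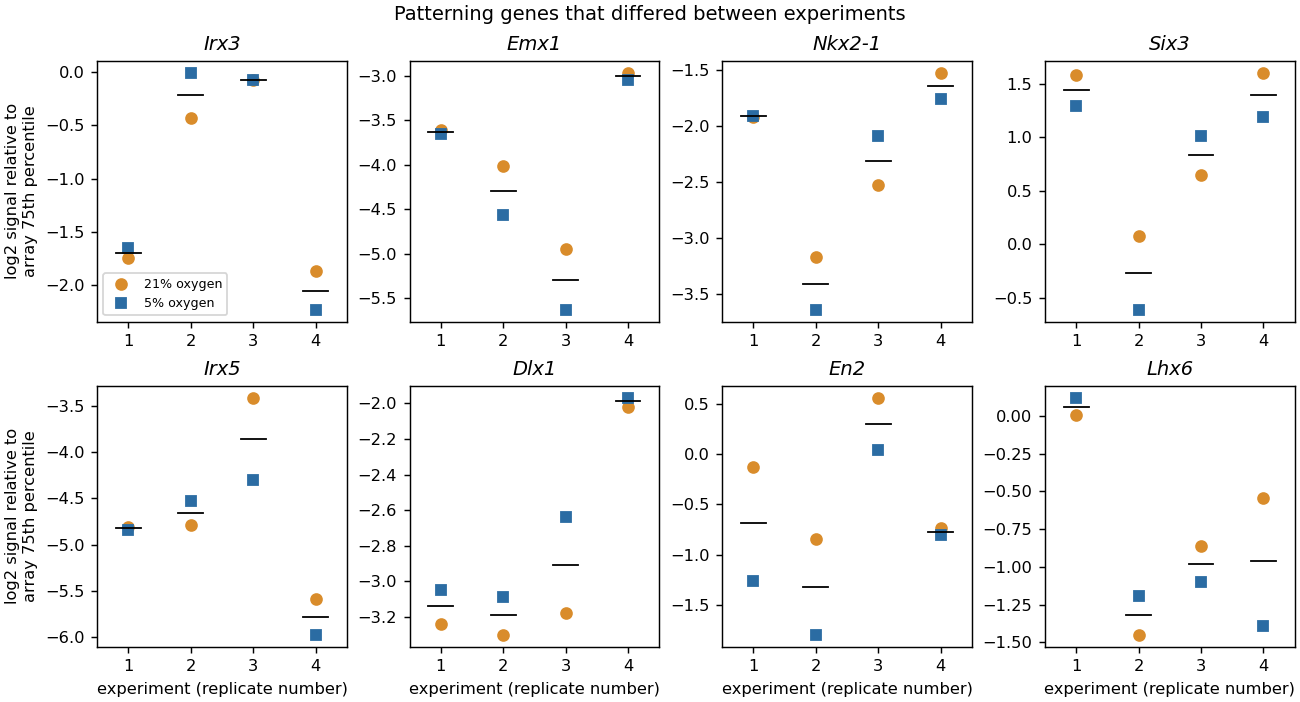
Log2 level of the 8 patterning genes that passed limma's F test between experiments, by experiment 1 to 4, with 1 point per culture (21% and 5% oxygen) and a black line at the mean of the pair. The range between experiment means runs from 2.29-fold (Dlx1) to 4.84-fold (Emx1), and Irx3 and Emx1 run in opposite orders.

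A further 96 patterning genes outside the set, taken as a list of forebrain, ventral neural tube, midbrain, hindbrain, cofactor and Hox genes, gave a wider view. Of these 96, 49 were well above background on all 8 arrays, 17 on some and 30 on none, and 55 were tested. The 33 Hox genes among them, also counted above, had 3 on all 8 arrays, 9 on some and 21 on none. On all 8 arrays were 16 of 24 forebrain, 4 of 7 ventral neural tube, 10 of 16 midbrain and hindbrain, and 16 of 16 cofactor and paralog genes. Over all RefSeq genes the share on all 8 arrays was 72.2%. In limma's paired test 2 of 55 rose, against 4.24% of all genes, and 4 of 55 fell, against 1.29% of all genes. In the unpaired test 0 of 55 passed, against 0.0894% of all genes, and 8 of 55 had an unadjusted p under 0.05, against 8.04% of all genes. The median log2 change of the list was 0.09.

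Phox2a, the homeobox factor of noradrenergic and cranial motor neurons, rose 6.47-fold. Its log2 level was -4.86, -4.20, -3.89 and -5.55 at 21% oxygen and -2.95, -0.56, -1.26 and -2.96 at 5% oxygen. The groups did not overlap, and the log2 change of 2.69 (SE 0.25) had an adjusted p of 0.00188 in limma's paired and 0.121 in the unpaired test. Sp5, a zinc-finger target of Wnt signalling, rose 2.29-fold (paired adjusted p = 0.0129), and without experiments 1, 2 or 3 the adjusted p was 0.0505, 0.0602 and 0.0679. Nkx6-2, of ventral progenitors, fell by 1.03 on the log2 scale (paired adjusted p = 0.0119, and 0.0673 without experiment 3). Pax8 and Gbx2, both of the midbrain-hindbrain region, fell by 0.87 and 0.81 on the log2 scale with paired adjusted p of 0.0138 and 0.043. Pax8 did not pass without experiment 3 (0.0803), nor Gbx2 without experiments 1, 2 or 3 (0.103, 0.0848 and 0.158). Nkx6-2 was well above background on 7 arrays, at 21.7 to 359 intensity units, and Pax8 gave 34.3 to 215. Both thus came near the lowest signal called well above background.

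Markers of other cell types moved with oxygen and with the experiment in the same arrays. Over all genes, the paired limma test called 4.24% higher and 1.29% lower at 5% oxygen. In the same test 2 of 6 oligodendrocyte lineage markers rose (Cspg4 and Mbp). The list's mean log2 level lay between -1.26 and 0.38 at 21% oxygen and between 0.01 and 0.75 at 5% oxygen. Of 11 tested neuronal markers 3 rose (Nefl, Nefm and Gad2), with list means of -1.49 to -0.98 and -0.95 to -0.56. The rise was not shared by the list, as 6 of the 11 had a higher mean and 5 a lower mean at 5% oxygen. Tubb3 changed by -0.05, Map2 by -0.03 and Stmn2 by -0.25 (log2). Slc17a6 and Slc17a7 were not well above background on enough arrays to test. Of 6 astrocyte markers 1 rose (-0.55 to 0.46 and -0.15 to 0.99). Of 8 meningeal markers 4 rose and 2 fell (-3.69 to -1.66 and -3.75 to -0.84), and of 7 tested endothelial and mural markers 1 rose and 3 fell (-3.09 to -2.23 and -3.50 to -2.57), with Cdh5 not tested. Microglial markers had 0 of 6 pass in either direction (-3.72 to -1.59 and -3.54 to -1.21), with 0 at an unadjusted paired p under 0.05, against 19.4% of all genes. In the unpaired limma test 0 markers of these lists passed, against 0.0894% of all genes. Its unadjusted p was under 0.05 for 3 of 11 neuronal, 4 of 6 oligodendrocyte lineage, 3 of 8 meningeal and 3 of 7 endothelial and mural markers, against 8.04% of all genes. Of the 16 paired marker calls, 10 held without experiment 1, 9 without experiment 2, 2 without experiment 3 (Col1a2 and Pdgfrb) and 15 without experiment 4. Nefl, Nefm and Gad2 did not pass without experiment 2 or 3, nor Cspg4 without experiment 1, 3 or 4. Between experiments, 8 of 8 meningeal, 5 of 7 endothelial and mural, 4 of 6 microglial, 6 of 11 neuronal, 2 of 6 astrocyte, 0 of 6 oligodendrocyte lineage and 3 of 10 NSC markers (Nes, Fabp7 and Vim) passed the F test, against 19.4% of all genes. The part of these cell types in the values of Gsx2, Phox2a and the genes that differed between experiments was not tested. The NSC markers had 0 of 10 pass the oxygen test, with list means of 2.49 to 2.85 at 21% and 2.52 to 2.91 at 5% oxygen.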

How the data were processed

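Total RNA of 8 NSC cultures (4 per oxygen level) was labelled with Cy3. According to the submitters' processing notes, the deposited intensity values were extracted by version 10.7.3.1 of Agilent Feature Extraction. The processed signal is background-subtracted and unscaled between arrays, per the file headers. The authors' deposited log2 table matched log2 processed signal minus the array's 75th percentile and the probe's median over arrays within 0.01 for 99.72% to 99.76% of probes per array (column medians -0.12 to 0.25), and served as an alternative.

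Control and outlier spots were left out and spots of a probe averaged. A probe was well above background where at least 0.5 of its spots were, and was kept if so on at least 3 of 4 arrays of a group (37650 of 55681 probes). Accessions were matched to RefSeq (GRCm38.p6), which named 27235 probes. Probe coordinates are not printed, since the array design used a different build. The probe with the highest mean stood for a gene.

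Groups were compared with limma 3.58.1 in R 4.3.3 (Benjamini-Hochberg over 26856 genes and transcripts, threshold 0.05), without a block (unpaired) and with the replicate number as a block (paired). The scripts' fits were tested on simulated data. By the description of the design, each experiment had its own donors and both oxygen levels in parallel. The replicate number was taken as the experiment, which the sample titles do not state. Deviations of same-numbered cultures correlated at 0.76, 0.51, 0.38 and 0.66. Normoxia culture 2 and hypoxia culture 3 correlated at 0.31, near the 0.38 of pair 3, and all other mismatched pairs were negative. The correlations thus do not settle pair 3, and the paired tests rest on the numbering. Alternatives were normexp (on the median spot signal and background, offset 50), quantile and median scaling, other filters, probe means, outlier spots kept, trend and robust moderation, the replicate number as a random block, the deposited table, and leaving out cultures or pairs.

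The members and lists were chosen with earlier results of these data known. All 41 genes are named, and values on every array are given for those past a threshold, with 4 pair differences of 1 sign and a median size over 0.5, or well above background on 1 to 7 arrays. The values of Gsx1 were added for comparison with Gsx2. Some genes of the further patterning list are counted but not reported by name here.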

Additional observations from a re-analysis of the deposited data

Results flagged for a closer look

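In 66 groups of 4 cultures (33 patterning genes at each oxygen level), the highest or lowest culture was compared with the rest by Dixon's ratio of gap to range. It stood apart in 6, and chance alone gives about 1 in 20 groups.

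At 21% oxygen, Eomes in experiment 2 had a log2 level of -7.60 against -6.53 to -6.40 in the other cultures. Dmrta2 in experiment 4 was at 0.03 against 0.27 to 0.30, and Dlx1 in experiment 4 at -2.02 against -3.30 to -3.18. At 5% oxygen, Gsx2 in experiment 1 was at -1.11 against -0.42 to -0.28, Six3 in experiment 2 at -0.61 against 1.01 to 1.29, and Meis1 in experiment 3 at 2.68 against 2.28 to 2.32. Without experiment 1, Gsx2 still passed the paired limma test, and Dlx1 did not pass the test between experiments without experiment 4 (adjusted p = 0.594).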

How the results depend on the processing

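No patterning gene passed limma's unpaired test and 1 did with the replicate block. The paired count of 1 became 0 with no replicate block, 4 with normexp, 2 with probes well above background on all 8 arrays and 3 with trend and robust moderation, and ran from 1 to 3 without 1 pair. Genes gained were Nr2f2 (0.66 and adjusted p = 0.0279 with normexp, 0.0443 with the stricter filter, 0.022 with robust moderation), En2 (-0.65 and 0.035 with normexp, 0.0327 with robust moderation) and Neurog2 (0.70 and 0.0421 with normexp). The count of 8 between experiments became 20 with normexp, 13 with trend and robust moderation and 2 with no filter (Irx3 and Emx1), and ran from 5 to 10 without 1 pair. Lhx6 did not pass with quantile (0.0632) or median scaling (0.0649). The cause was not tested. Over all genes, the paired count of 1487 became 450 with no filter, 2300 with robust moderation and 24 without the block, and 717, 820 and 389 without experiments 1, 2 and 3. The unpaired count of 24 became 1487 with the block, 37 with normexp, 51 with the stricter filter, 103 with robust moderation, 0 with quantile or median scaling or no filter, and 0 to 57 without 1 culture or pair. The count of 5210 between experiments became 12024 with normexp, 2866 with quantile scaling, 8028 with robust moderation, 712 with no filter and 1546 without experiment 1. Of 1215 alternative values of single genes, 1188 stayed on their side of the threshold, uncalled ones within 1 SE, and 0 called values reversed, while 86 uncalled values changed sign. Changes in genes near background are bounded by the array's lowest measurable signal.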
